A study of Mus musculus with 8 samples.

Results

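The genes described here work in mitosis. They are a list of 46 genes with known roles in entry into mitosis, the kinetochore, the spindle and cell separation, and 45 of them were measured by a probeset (a group of array probes summarised to a single value) that was assigned to exactly 1 gene, out of 19938 genes measured in that way. Top2a had 2 such probesets, so there were 46 member probesets among 21789 tested, and Ccnb1 had none. The samples were mouse bone marrow cells after 4 days of culture on OP9-DL4, stroma engineered to display the Notch ligand Delta-like 4. The medium held a cytokine that the labels give as IL1 at 1 ng/ml and Flt3 ligand at 5 ng/ml. Cultures began with sorted lymphoid primed multipotent progenitors (lineage marker negative, Sca and kit positive, Flt3 high), and CD45.2-positive cells were sorted again at the end. Lineage-negative cells (Mac1, Gr1, Thy1 and CD25 negative) came from 3 Tcf7-/- mice, here called deficient because they lack the transcription factor Tcf1, and from 3 Tcf7+/+ mice, here called wildtype. T lineage cells (Thy1 and CD25 positive) came from Tcf7+/+ cultures in 2 replicates, since per the labels the deficient progenitors gave none. Both genotypes belong to a line backcrossed for about 6 generations and kept on a mixed background. Age and sex of the mice, and whether the T lineage replicates and the wildtype lineage-negative replicates share mice, are not stated in the labels.

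A cell enters mitosis when the kinase Cdk1, bound to a mitotic cyclin, is switched on by Cdc25 phosphatases, and the Polo and Aurora kinases then build the spindle. Kinetochores, assembled on the centromeric histone variant Cenpa, bind the spindle's microtubules, and the spindle checkpoint holds back the anaphase-promoting complex until every chromosome is attached. That complex then marks securin and the cyclins for destruction, separase cuts cohesin, and the central spindle and contractile ring split the cell. Early T cell progenitors are known to divide several times under Notch signalling, and transcripts of these genes are made mainly in the later part of the cell cycle. In a bulk sample, fewer dividing cells and less RNA per dividing cell cannot be told apart.

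The promoters of many such genes are known to carry a cell cycle homology region (CHR), a short element bound by the MuvB complexes, and CCAAT boxes bound by NF-Y. RefSeq promoter windows on GRCm38.p6, from 250 bases before to 50 bases after a gene's start, were matched for 40 of the 46 genes, with 44 windows in all. The core of the CHR, TTTGAA on either strand, was found in 29 of the 44 windows (65.9%), against 17.9% of all 32851 windows. CCAAT on either strand was found in 32 (72.7%, against 37.4% of all windows), and both motifs in 24 (54.5%, against 6.95%). Some genes have several windows, and those of Ect2 and Prc1 overlap. Counted by gene, 27 of 40 had TTTGAA (67.5%, against 20.2% of all genes) and 28 had CCAAT (70.0%, against 41.1%), and 22 had both. Of the 39 TTTGAA matches 29 began within 50 bases of the start, while 67 of the 69 CCAAT matches lay before it. Most of each window lies before the start, and a match in overlapping windows is counted in each. Positions were not counted over all windows, so these numbers have no background. A match describes letters and is not a measured binding site.

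**Figure D1:**
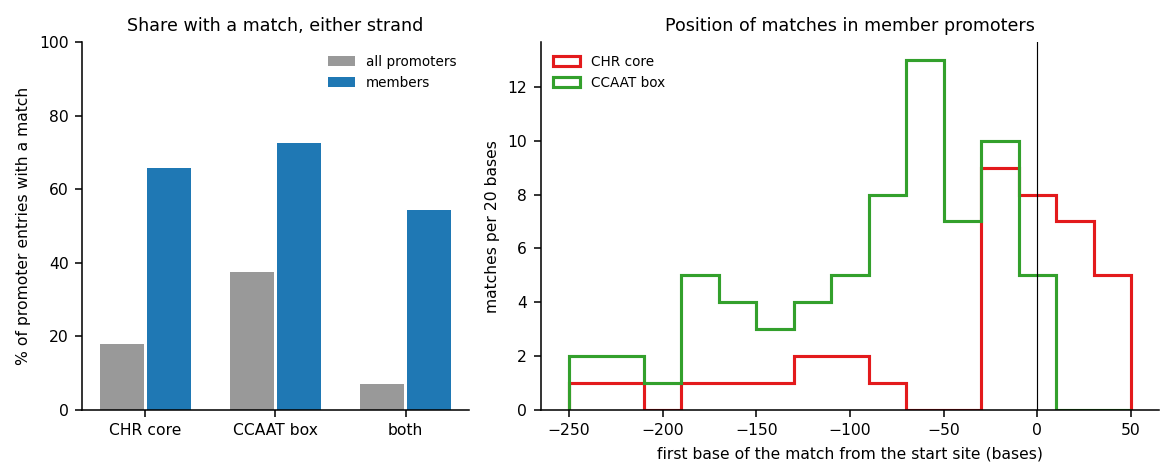
Left, the share of promoter windows (in percent) with TTTGAA, with CCAAT and with both on either strand, in all 32851 windows (grey) and in the 44 windows of member genes (blue). Right, the position of each match in member windows (in bases from the start site, matches per 20 bases): TTTGAA matches gather around the start and CCAAT matches before it.

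A set of 5 windows is shown because it spans the expression results below. All 5 hold both motifs, as do 24 of the 44 member windows, so windows that lack a motif are not shown. Kif23, Cenpf and Aspm fell in the T lineage population, whereas Ccnb2 and Cdc20 did not pass the test. Each runs 5' to 3' on the gene's strand from 150 bases before to 30 bases after the start, and capitals mark TTTGAA and CCAAT on either strand (TTCAAA and ATTGG are their reverse forms). No match in these windows overlaps another. On GRCm38.p6, the Kif23 window is chr9:61946770-61946949 (minus strand) and the Cenpf window chr1:189688057-189688236 (minus strand). The Aspm window is chr1:139454623-139454802 (plus strand), the Ccnb2 window chr9:70421525-70421704 (minus strand) and the Cdc20 window chr4:118437314-118437493 (minus strand).
Kif23: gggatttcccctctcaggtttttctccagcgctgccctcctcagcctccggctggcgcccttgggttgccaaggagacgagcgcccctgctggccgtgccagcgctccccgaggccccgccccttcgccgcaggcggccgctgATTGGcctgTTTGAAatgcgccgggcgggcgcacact
Cenpf: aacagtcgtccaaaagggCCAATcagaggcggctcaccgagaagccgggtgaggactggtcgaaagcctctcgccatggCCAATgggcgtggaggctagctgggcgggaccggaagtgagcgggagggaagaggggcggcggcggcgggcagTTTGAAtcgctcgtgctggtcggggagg
Aspm: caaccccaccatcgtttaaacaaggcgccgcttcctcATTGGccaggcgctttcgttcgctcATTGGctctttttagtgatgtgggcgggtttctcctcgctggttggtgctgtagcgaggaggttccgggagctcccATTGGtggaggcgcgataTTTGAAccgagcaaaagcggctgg
Ccnb2: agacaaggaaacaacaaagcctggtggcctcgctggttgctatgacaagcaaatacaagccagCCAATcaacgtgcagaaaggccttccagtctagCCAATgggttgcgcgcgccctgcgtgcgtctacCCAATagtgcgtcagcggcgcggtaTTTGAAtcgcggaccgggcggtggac
Cdc20: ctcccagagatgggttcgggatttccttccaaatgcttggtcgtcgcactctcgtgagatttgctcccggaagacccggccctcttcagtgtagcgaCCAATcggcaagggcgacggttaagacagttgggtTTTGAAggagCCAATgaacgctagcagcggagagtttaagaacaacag
Each of these stretches holds 1 TTTGAA. Kif23 has 1 CCAAT, Cenpf and Cdc20 have 2, and Aspm and Ccnb2 have 3, and in Cdc20 a CCAAT follows the TTTGAA. Among the 11 windows of the genes that were lower in T lineage cells, 8 held TTTGAA (72.7%), 10 held CCAAT (90.9%) and 8 held both (72.7%). Among the other 33 windows the numbers were 21 (63.6%), 22 (66.7%) and 16 (48.5%). Counted by gene, the others were 19 of 29 (65.5%), 18 (62.1%) and 14 (48.3%). They include Ccnb1, which has no expression result here. The difference was not tested.

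Across the series, arrays of the same group correlated with r from 0.995 to 0.997 over the tested probesets, lineage-negative arrays of different genotype with the same range, and lineage-negative with T lineage arrays from 0.973 to 0.983. Marker lists differed between the sorted populations. All 7 measured T lineage markers rose in T lineage against wildtype lineage-negative cells (against 7.66% of all tested probesets). Among them Thy1 and Il2ra, the gene of CD25, belong to the sort gate, so their rise was set by the sort. Of the dendritic cell markers 8 of 8 fell, and of the granulocyte and monocyte markers 7 of 12 (against 10.4% of all). Flt3, counted here as a dendritic cell marker, was also part of the gate for the starting progenitors. Itgam, the gene of Mac1, was among these falls (mean 8.05 to 6.64), although the lineage-negative cells were sorted as Mac1 negative. The Tcf7 transcript was not analysed here and gives no check of the genotypes. Values below are the deposited log2 values, whose level cannot be compared between probesets, and "passed" means a limma adjusted p under 0.05.

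Between the genotypes, no mitotic gene passed. Of the 46 member probesets 0 were higher and 0 lower in deficient than in wildtype lineage-negative cells, against 0% and 0.00459% of all tested probesets. By limma an unadjusted p under 0.05 was reached by 0 of 46, against 1.84% of all probesets on the higher and 3.07% on the lower side, and each of the alternative analyses also called 0 members. The log2 differences lay between -0.15 and 0.04 with a median of -0.06, where the median of all tested probesets was -0.01. The differences were small and nearly all to the same side: 42 of 46 were below 0 (91.3%, against 53.5% of all probesets), and Plk1, Aurka, Nuf2 and Tpx2 were the ones above. The genes of a cell cycle programme share their arrays, so these signs are not independent of each other. The interval of a single gene shows how far the arrays bound the difference: over all 46 probesets the 95% limits reached from -0.42 (Top2a, probeset 10390746) to 0.33 (Plk1).

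The 3 deficient arrays lay wholly below the 3 wildtype arrays for 7 members (15.2%, against 6.01% of all probesets) and wholly above for 0 (against 3.93%). These 7 were the cyclin Ccna2, the checkpoint kinase Bub1, the kinetochore genes Cenpf and Spc25, the motors Kif22 and Kif4, and the spindle pole gene Aspm. The member with the smallest p was Cenpf, which encodes a large coiled-coil protein of the outer kinetochore. It read 9.96, 9.83 and 10.00 on the deficient arrays and 10.10, 10.07 and 10.08 on the wildtype arrays, a log2 difference of -0.15 (SE 0.07, adjusted p = 0.999). The groups do not overlap, but the difference is of the size of the range among the deficient arrays.

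Deficient array 2 stood apart from the other deficient arrays for these genes. Only 12 of its 46 member probesets lay above the mean of their group, against 31 on deficient array 1 and 38 on deficient array 3, while 59.6% of all tested probesets on array 2 lay above their group mean. Hmmr, a spindle assembly factor, read 9.55 on that array and 9.95 and 9.87 on the other deficient arrays, and the motor Kif15 read 10.25 against 10.57 and 10.50. Without deficient array 2 the median genotype difference of the members was -0.02, and without wildtype lineage-negative array 2 it was -0.09. Among the wildtype arrays 34, 14 and 23 member probesets lay above their group mean on arrays 1, 2 and 3. The median deviation of the members from their group mean ran from -0.07 to 0.05 over the lineage-negative arrays, which is of the size of the median genotype difference.

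**Figure D2:**
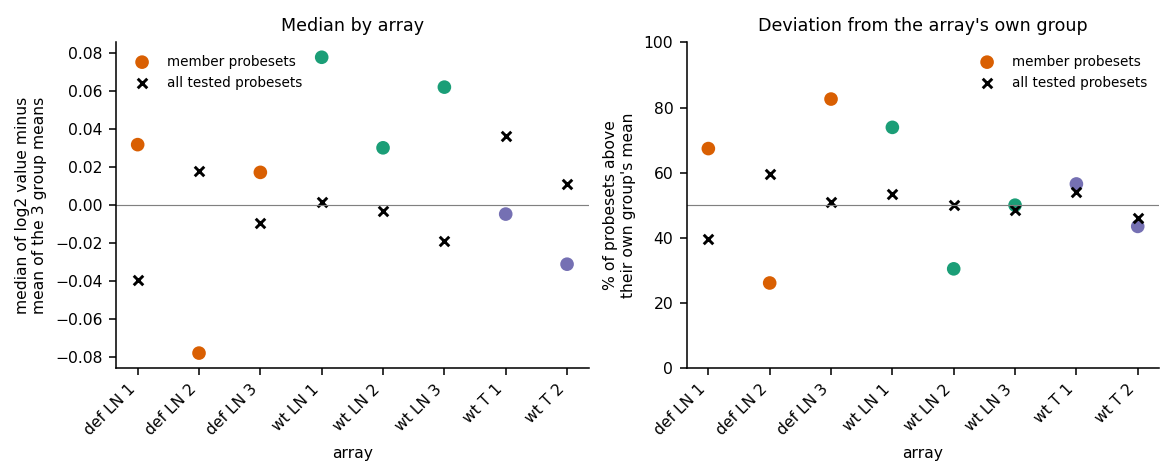
Left, for each of the 8 arrays, the median over the 46 member probesets (coloured dots) and over all tested probesets (crosses) of the log2 value minus the mean of the 3 group means. Right, the percent of probesets on each array that lie above the mean of their own group. Orange marks deficient and green wildtype lineage-negative (LN) arrays, and purple marks T lineage arrays; deficient array 2 has the lowest member median.

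T lineage cells carried less transcript of several kinetochore, motor and spindle genes than wildtype lineage-negative cells. Of the 46 member probesets 11 fell (23.9%, against 10.4% of all tested probesets) and 0 rose (against 7.66%), and 35 did not pass. The falls were modest, with fold differences from 1.20 for Cenpa to 1.61 for Top2a probeset 10390746. Of the role groups, centromere and kinetochore genes had 5 of 8 lower, kinesins 2 of 9, spindle and cytokinesis genes 2 of 7, and proliferation markers 2 of 3 probesets. Mitotic entry kinases, checkpoint genes, anaphase genes and the chromosomal passenger complex had none. The median log2 difference of the members was -0.07, while that of all tested probesets was 0.04, and 18 of 46 had an unadjusted p under 0.05 (39.1%, against 15.1% of all probesets on the higher and 14.3% on the lower side). Differences were below 0 for 29 probesets (against 39.7% of all) and above 0 for 17 (against 60.3%). Both T lineage arrays lay below all 3 wildtype lineage-negative arrays for 23 of 46 members (against 19.8% of all) and above them for 8 (17.4%, against 28%).

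The count rested on few arrays. It was 4 without T lineage array 1, 2 without T lineage array 2, and 5, 5 and 6 without wildtype lineage-negative arrays 1, 2 and 3. The alternatives shared Kif23 and Cenpf, which passed in every one run. Dendritic cell and myeloid markers moved with the same contrast: the summed linear level of the 8 dendritic cell probesets was 10000 to 12100 on wildtype lineage-negative and 564 to 649 on T lineage arrays, and that of the 12 granulocyte and monocyte probesets 8290 to 13200 and 3370 to 5200. No marker is at 0 on this scale. Their part in the mitotic differences was not tested. The 15 probesets of OP9 stroma markers summed to 1810 to 1830 and 1670 to 1790, with 1 of 15 lower (6.67%, against 10.4% of all probesets). On deficient arrays they summed to 1910 to 2180, and 3 of 15 were lower in T lineage than in deficient cells (20.0%, against 8.16%). Between the genotypes 0 of the 15 passed, with 7 differences above 0 and 8 below. By limma 3 of the 15 had an unadjusted p under 0.05 (20.0%, against 1.84% of all probesets on the higher and 3.07% on the lower side). These were Sparc (0.54), Cxcl12 (0.42) and Pdgfrb (0.39), all higher in deficient cells and without overlap between the arrays. The part of stroma in the genotype differences of the members was not tested.

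**Figure D3:**
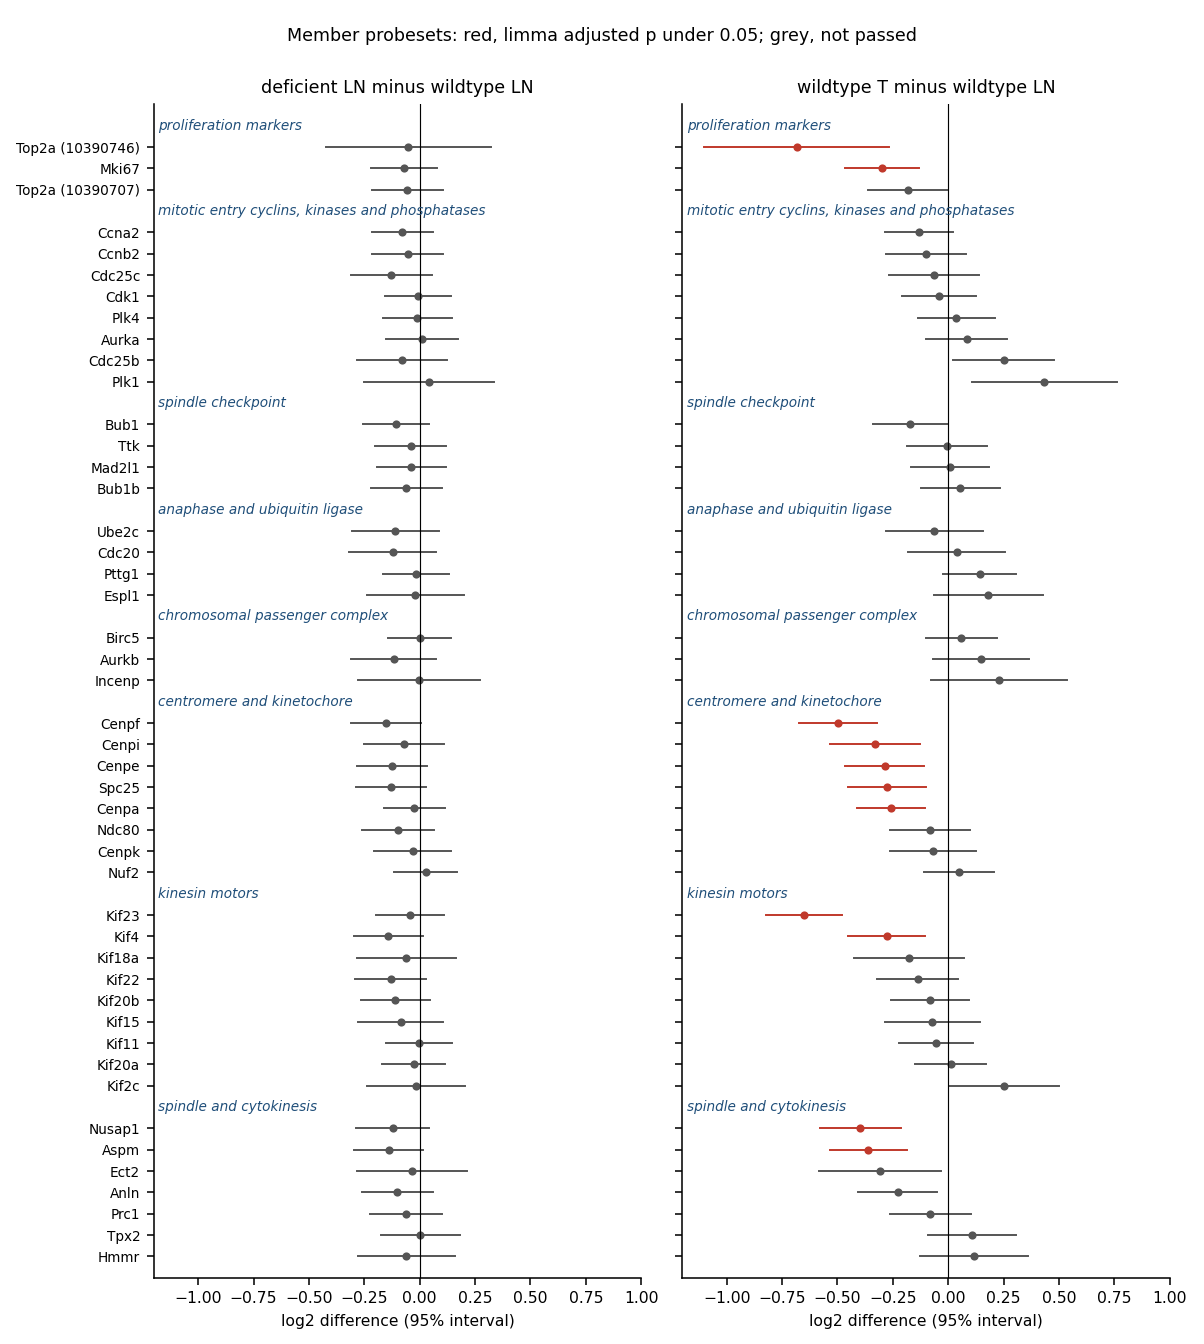
Log2 differences of the 46 member probesets (dots) with 95% intervals (lines), grouped by role, between deficient and wildtype lineage-negative (LN) cells on the left and between T lineage and wildtype lineage-negative cells on the right. Red marks an adjusted p under 0.05: none on the left, and 11 on the right, all below 0.

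Among the proliferation markers, Mki67, whose protein Ki-67 coats mitotic chromosomes, read 11.37, 11.28 and 11.32 on the wildtype lineage-negative arrays and 11.02 and 11.03 on the T lineage arrays. Both T lineage arrays were below all lineage-negative arrays, the deficient ones included (11.21, 11.21 and 11.33). The difference from wildtype was -0.30 (SE 0.08, adjusted p = 0.0185). Top2a, the topoisomerase that untangles sister chromatids, gave unequal results from its probesets. Probeset 10390746 read 7.66, 7.38 and 7.35 in wildtype lineage-negative and 6.84 and 6.72 in T lineage cells, a difference of -0.68 (SE 0.19, adjusted p = 0.028). Probeset 10390707 read 12.19, 12.23 and 12.20 against 12.03 and 12.02, with a difference of -0.18 (SE 0.08, adjusted p = 0.162) that did not pass. Both point the same way, and the first varied widely among deficient arrays (7.78, 6.99 and 7.46). The call of Mki67 was lost in 5 of 17 alternatives and that of Top2a probeset 10390746 in 5 of 16.

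The genes of mitotic entry did not pass in either direction. Plk1, the Polo kinase that drives spindle assembly and mitotic exit, had the largest positive difference of all members. It read 8.93, 8.67 and 9.19 on the wildtype lineage-negative and 9.35 and 9.38 on the T lineage arrays, without overlap, and differed by 0.43 (SE 0.15, adjusted p = 0.0695). It passed under 5 of the alternatives (adjusted p of 0.0209 to 0.0486), among them the analysis without wildtype lineage-negative array 3, where the difference was 0.56. Its spread of 0.26 (SD, n = 3) in the wildtype cells is the widest of all members there. Cdc25b, a phosphatase that activates Cdk1, read 7.54, 7.26 and 7.37 against 7.76 and 7.52, with overlapping groups and a difference of 0.25 (SE 0.10, adjusted p = 0.131).

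Cdc25c, a second such phosphatase, read 9.10, 9.10 and 9.06 in wildtype lineage-negative, 9.05 and 8.99 in T lineage and 9.08, 8.79 and 9.004 in deficient cells. Its T lineage difference was -0.06 (95% interval -0.27 to 0.14) and its genotype difference -0.13 (-0.31 to 0.05), the latter lowered by deficient array 2. No measured gene in the core of the switch passed. Cdk1 differed by -0.04 (-0.21 to 0.13), with overlapping arrays. Ccna2, the cyclin of S phase and early mitosis, differed by -0.13 (-0.29 to 0.02), and Ccnb2, a mitotic cyclin, by -0.10 (-0.28 to 0.08). For Ccna2, Ccnb2 and Cdc25c both T lineage arrays lay below all wildtype lineage-negative arrays. The centriole kinase Plk4 differed by 0.04 (-0.14 to 0.21) and the spindle kinase Aurka by 0.08 (-0.10 to 0.27). A fall as large as the smallest one that passed (Cenpa, -0.26) lies inside the intervals of Ccna2, Ccnb2 and Cdc25c and outside those of Cdk1, Plk4 and Aurka.

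Spindle checkpoint genes were close in both populations. Bub1, a kinase of unattached kinetochores, read 10.92, 10.88 and 10.84 in wildtype lineage-negative and 10.67 and 10.74 in T lineage cells, without overlap, but its difference of -0.17 (SE 0.08, adjusted p = 0.157) did not pass. Its partner Bub1b, which inhibits the anaphase-promoting complex, read 10.41, 10.35 and 10.41 against 10.43 and 10.46 and differed by 0.06 (adjusted p = 0.71). Mad2l1, which sequesters Cdc20, differed by 0.01 and the kinase Ttk by -0.00, at adjusted p of 0.959 and 0.981.

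The genes of anaphase lay at or slightly above the wildtype lineage-negative level. Espl1 encodes separase and read 7.42, 7.28 and 7.38 against 7.47 and 7.61 in T lineage cells (difference 0.18, adjusted p = 0.321). Pttg1, which encodes securin, the inhibitor of separase, read 9.83, 9.91 and 9.88 against 9.95 and 10.07 (0.14, adjusted p = 0.243). In both the T lineage arrays were the higher ones, by less than the test required. Cdc20, the activator of the anaphase-promoting complex, read 9.54, 9.35 and 9.59 against 9.56 and 9.51 (0.04), and its values of 9.24, 9.48 and 9.40 in deficient cells overlapped those of the wildtype lineage-negative arrays and lay below those of both T lineage arrays. Ube2c, the ubiquitin-conjugating enzyme of that complex, differed by -0.06.

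All 3 genes of the chromosomal passenger complex, which corrects faulty attachments, had positive differences that did not pass. Incenp, its scaffold, read 9.58, 9.23 and 9.62 in wildtype lineage-negative and 9.59 and 9.83 in T lineage cells (0.23, SE 0.14, adjusted p = 0.312). Aurkb, its kinase, read 9.32, 9.22 and 9.37 against 9.35 and 9.55 (0.15, adjusted p = 0.355) and had the largest genotype difference of the group, -0.12. Birc5, or survivin, differed by 0.06. The arrays of Incenp and Aurkb overlapped between the groups.

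Of the 11 falls, 5 were among centromere and kinetochore genes. Cenpf read 10.10, 10.07 and 10.08 in wildtype lineage-negative and 9.64 and 9.53 in T lineage cells, a 1.41-fold lower level (log2 difference -0.50, SE 0.08, adjusted p = 0.00136). Cenpi, an inner kinetochore subunit, read 8.72, 8.64 and 8.58 against 8.25 and 8.38 (-0.33, SE 0.09, adjusted p = 0.0297). Neither gene's T lineage arrays overlapped those of the lineage-negative cells of either genotype. Cenpe, the kinesin that moves chromosomes to the spindle equator, fell by 0.29 (adjusted p = 0.0319) and Spc25, of the microtubule-binding Ndc80 complex, by 0.28 (adjusted p = 0.0356). Cenpa itself read 9.76, 9.76 and 9.76 against 9.49 and 9.51 and fell by 0.26 (adjusted p = 0.0265). Cenpk (-0.07), Ndc80 (-0.08) and Nuf2 (0.05) did not pass, with intervals between -0.26 and 0.21. Most of these calls were not steady: of 17 alternatives, Spc25 lost its call in 10, and Cenpa, Cenpe and Cenpi in 7 each. Cenpf lost it in 0.

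The Ndc80 complex joins the kinetochore to microtubules through 4 subunits, and the gene of the remaining one, Spc24, belongs to a list of other kinetochore genes. This set was singled out after its values were seen. Spc24 read 9.55, 9.66 and 9.68 on wildtype lineage-negative and 10.02 and 10.11 on T lineage arrays and rose by 0.44 (SE 0.08, adjusted p = 0.00219), while Spc25, its direct partner, fell. The Spc24 value minus the Spc25 value was -0.52, -0.60 and -0.42 on the wildtype and -0.42, -0.30 and -0.38 on the deficient lineage-negative arrays, and 0.18 and 0.22 on the T lineage arrays. The size and sign of such a difference depend on the probes, and only its change between arrays can be read: it was higher on both T lineage arrays than on the 6 others.

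**Figure D4:**
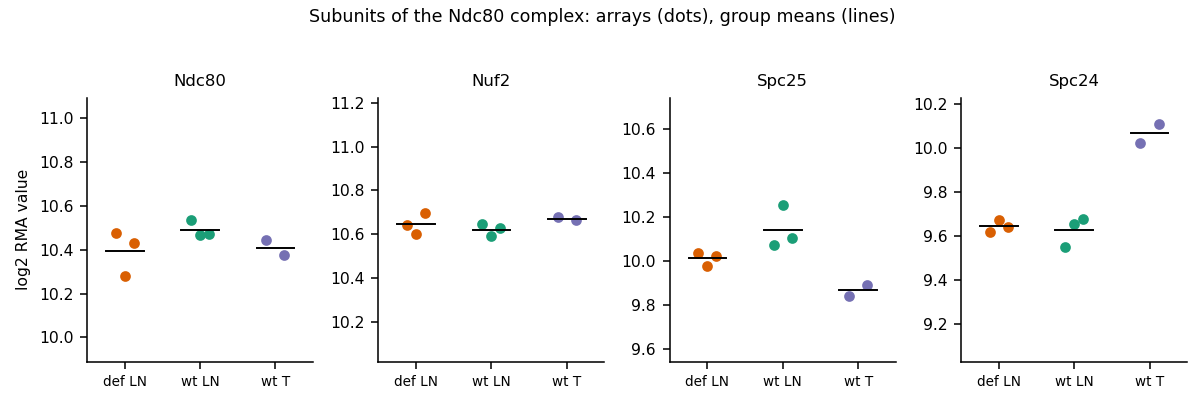
Log2 values of the 4 subunits of the Ndc80 complex on each array (dots) with group means (lines), for deficient lineage-negative (def LN), wildtype lineage-negative (wt LN) and wildtype T lineage (wt T) cells. Every panel spans the same range; Spc25 is lower and Spc24 higher in T lineage cells, and Ndc80 and Nuf2 did not pass.

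Kif23 had the smallest p of all members. It encodes the motor of centralspindlin, which bundles the central spindle and calls in the contractile ring. The value was 11.35, 11.26 and 11.25 in wildtype lineage-negative, 11.29, 11.16 and 11.29 in deficient and 10.65 and 10.62 in T lineage cells. The gap between the T lineage arrays and all others was several times the spread within any group, and the level was 1.57-fold lower than in wildtype lineage-negative cells (-0.65, SE 0.08, adjusted p = 0.000182). Racgap1, the other subunit of centralspindlin and no member, differed by -0.30 (adjusted p = 0.0562) and did not pass.

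Of the other kinesins, Kif4, a motor that works on chromosome arms and the central spindle, read 10.03, 10.08 and 10.05 against 9.76 and 9.79 in T lineage cells (-0.28, SE 0.08, adjusted p = 0.0317). Kif4 lost this call in 8 of 17 alternatives. Its deficient arrays, at 9.99, 9.81 and 9.93, lay between the groups, with a genotype difference of -0.14 (adjusted p = 0.999). Kif2c, which depolymerises microtubules at centromeres, stood on the other side with 0.25 (adjusted p = 0.165). Kif11, the motor that keeps spindle poles apart, differed by -0.05, Kif15 by -0.07, Kif18a by -0.18, Kif20a by 0.01, Kif20b by -0.08 and Kif22 by -0.14, and none passed. Among these motors Kif23 alone differed by more than 0.3 in size.

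Spindle and cytokinesis genes were mixed. Nusap1, which binds and bundles spindle microtubules, read 10.46, 10.53 and 10.59 in wildtype lineage-negative and 10.18 and 10.07 in T lineage cells (-0.40, SE 0.08, adjusted p = 0.00684). Aspm, which focuses spindle poles and is known for its role in brain size, read 9.12, 8.97 and 9.06 against 8.75 and 8.64 (-0.36, SE 0.08, adjusted p = 0.00895). Both were lower on each T lineage array than on any lineage-negative array. Ect2, which activates RhoA for furrowing, differed by -0.31 (adjusted p = 0.126) and Anln, which scaffolds the contractile ring, by -0.23 (adjusted p = 0.0816). Prc1, the bundler of the central spindle, differed by -0.08, Tpx2, an activator of Aurka, by 0.11 and Hmmr by 0.11. Without T lineage array 2, Nusap1 and Aspm lost the call (-0.34, adjusted p = 0.0658, and -0.31, adjusted p = 0.0812).

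**Figure D5:**
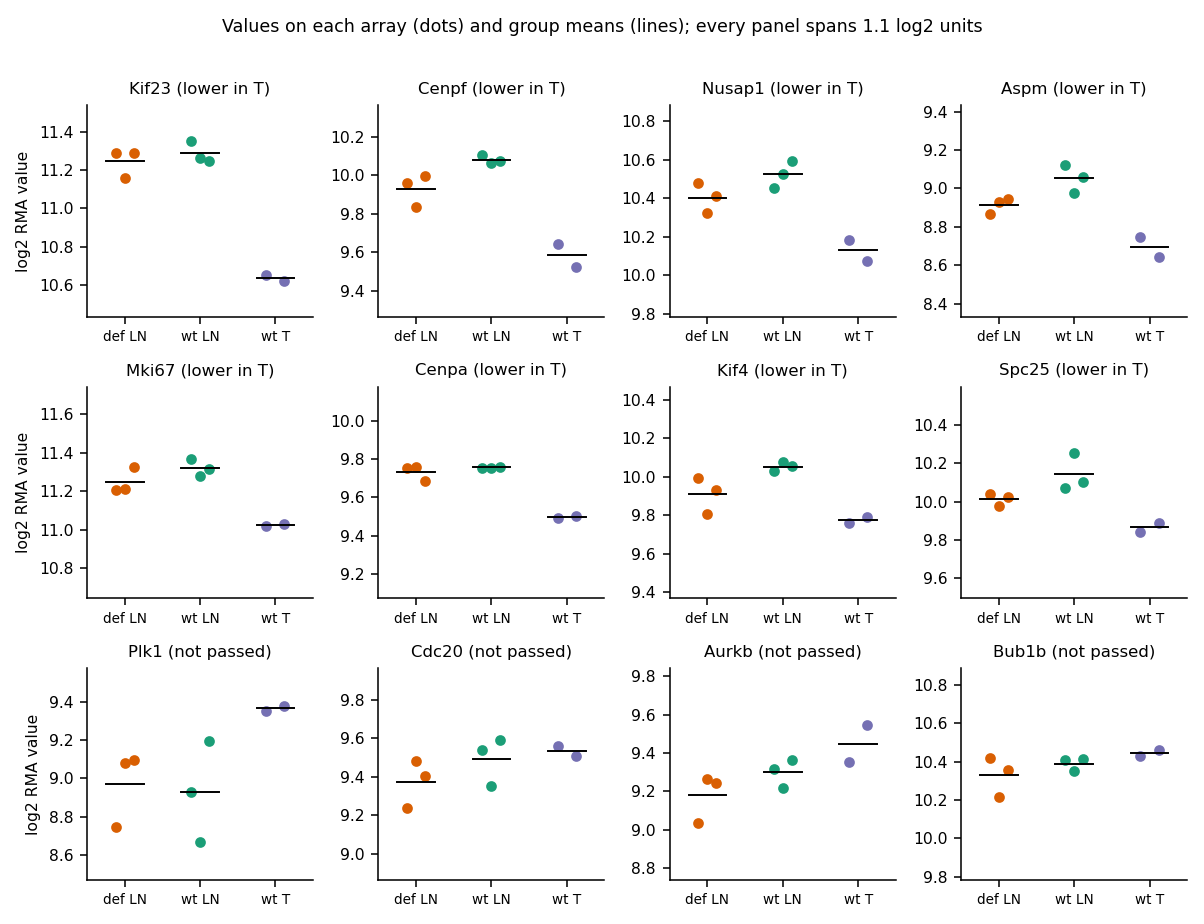
Log2 values of 12 members on each array (dots) with group means (lines) in deficient lineage-negative (def LN), wildtype lineage-negative (wt LN) and wildtype T lineage (wt T) cells. The upper 8 genes fell from wildtype lineage-negative to T lineage cells, and the lower 4 did not pass.

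Against deficient lineage-negative cells, a comparison that uses the same T lineage arrays, 4 of 46 member probesets fell (8.7%, against 8.16% of all tested probesets) and 0 rose (against 5.98%). The share that fell is thus close to the background. The 4 were Kif23 (-0.61, SE 0.08, adjusted p = 0.00038), Cenpf (-0.35, adjusted p = 0.0148), Top2a probeset 10390746 (-0.63, adjusted p = 0.0481) and Cenpa (-0.23, adjusted p = 0.0498). Nusap1 (-0.27, adjusted p = 0.0511), Mki67 (-0.23, adjusted p = 0.0753) and Aspm (-0.22, adjusted p = 0.0965) fell short. Differences ran from -0.63 to 0.39 with a median of 0.00, and 12 of 46 had an unadjusted p under 0.05 (26.1%, against 13.9% of all probesets on the higher and 12.3% on the lower side), which is the background share. Signs were split evenly, with 23 below 0 (against 39.1% of all) and 23 above (against 60.9%). The T lineage arrays lay wholly below the deficient arrays for 14 members (30.4%, against 17.1%) and wholly above for 9 (19.6%, against 23.6%). The count was 2 without T lineage array 1, 1 without T lineage array 2, 2 without deficient array 1, 5 without deficient array 2, 1 without deficient array 3 and 2 when each wildtype lineage-negative array was left out in turn. Kif23 passed in each of the alternatives. Cenpf lost its call in 2 of 17, Cenpa in 15 of 17 and Top2a probeset 10390746 in 9 of 16.

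Of the wider mitotic machinery, 118 further genes in 7 lists (129 probesets) had 9 probesets higher (6.98%, against 7.66% of all) and 7 lower (5.43%, against 10.4%) in T lineage against wildtype lineage-negative cells. These shares are at or below those of all probesets, and the genes below are named as examples. Among other kinetochore genes 3 of 28 rose and 1 fell: Spc24, Pmf1 of the Mis12 complex (0.42, adjusted p = 0.00469) and Zwint, which links the outer kinetochore to the checkpoint (0.37, adjusted p = 0.0112), against Spdl1, a dynein adaptor (-0.28, adjusted p = 0.0461). Other checkpoint and passenger genes had 1 of 7 higher and 1 lower, Trip13, an ATPase that turns over checkpoint complexes (0.40, adjusted p = 0.0133), and Sgo2a, a protector of cohesin (-0.44, adjusted p = 0.00328), while Cdca8, or borealin, did not pass (0.24, adjusted p = 0.106). Of other spindle, kinesin and cytokinesis genes 2 of 26 probesets fell, Kifap3, an adaptor of a transport kinesin (-0.41), and Fam83d, a spindle protein (-0.37). The first and the second of these lists held calls in both directions, and the spindle list held falls alone.

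Of other genes of the anaphase-promoting complex, 2 of 20 probesets rose, both of the conjugating enzyme Ube2s (0.37 and 0.35), and the subunit Anapc11 fell (-0.35). Among condensin and cohesin genes 2 of 22 probesets fell, the cohesin loader Nipbl (-0.32) and the condensin subunit Ncaph2 (-0.27), and the cohesin subunit Stag2 (-0.26, adjusted p = 0.117) did not pass. Mitotic entry regulators and transcription factors had 2 of 15 higher and 0 lower. Mybl2, or B-Myb, which acts with MuvB on CHR promoters, rose by 0.70 (SE 0.16, adjusted p = 0.0111), and Gtse1, which protects mitotic cells from arrest by p53, by 0.37 (adjusted p = 0.0113). Cdc25a, the phosphatase of earlier cycle steps, differed by 0.22 (adjusted p = 0.134). Foxm1, the other main activator of mitotic genes, named here after its value was seen, differed by -0.03 (adjusted p = 0.905). Of the centriole and centrosome genes 1 of 11 probesets rose, that of gamma-tubulin, Tubg1 (0.46, adjusted p = 0.0317), and both probesets of Cep192, a centrosome scaffold, were below 0 without passing (-0.30 and -0.20). Between the genotypes 0 of these 129 probesets passed, and 7 had an unadjusted p under 0.05 by limma (5.43%, against 1.84% of all on the higher and 3.07% on the lower side), close to the background. Of these 7, 4 were probesets of the same gene, Anapc5, all higher in deficient cells. Its probesets 10528157 and 10528159 hold the same value on every array, and its probeset 10533549 differed by 0.03. The 7 are thus not separate genes.

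DNA replication genes, which act before mitosis in the cycle, give a contrast in values. Of 38 probesets 7 rose in T lineage against wildtype lineage-negative cells (18.4%, against 7.66% of all) and 0 fell (against 10.4%). Their median was 0.17, where that of all probesets was 0.04 and that of the mitotic members -0.07. Against deficient cells 3 of 38 rose (7.89%, against 5.98%) and 0 fell (against 8.16%). The rises with the smallest p were those of Gins2, of the replicative helicase (0.67, adjusted p = 0.000291), Orc1, of the origin recognition complex (0.47, adjusted p = 0.00605), and Rpa2, which coats single-stranded DNA (0.32, adjusted p = 0.0164). Whether the lists differ was not tested, and both read the same arrays.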

How the data were processed

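Biotin-labelled cDNA amplified from 10 ng of total RNA was hybridised to 8 arrays, per the labels' protocols. The files hold 1 deposited log2 value per probeset and array. The submitters' processing notes name RMA (background correction, normalization across arrays and summary of probes) and Partek 6.5, without saying which step each did. The log2 scale was read from the values. Further options and the array's genome build were not stated there. Precision is limited by the number of arrays.

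From these values, probesets with exactly 1 gene in the platform annotation (21789 of 35399) were fitted with limma 3.58.1 in R 4.3.3, all arrays together as 3 groups with 5 residual degrees of freedom. Tests were two-sided and adjusted by Benjamini-Hochberg over all 21789, and the fit was tested on simulated data. The simulation drew independent noise for each probeset. Its check of false calls used a difference larger than that of any member called. The p-values set a group difference against the spread between arrays within groups. That spread is shared by the 3 groups and moderated by the spread of all probesets. The arrays were not paired by replicate number in the fit, and whether arrays of the same number share mice is not known. Members and lists were chosen with earlier results of these data known. Values on every array are given, per role group, for the 2 members with the largest T lineage difference and the 1 with the largest genotype difference from wildtype, and for Cenpa, and differences for the other members and for the 3 probesets of smallest p in each further list. Motifs and sequences come from RefSeq promoters. Alternatives left out each array, used a replicate block, only the groups compared, other normalizations, filters, weights and priors, all probesets or gene means.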

Additional observations from a re-analysis of the deposited data

How the results depend on the processing

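Of 525 alternative values of named or called genes 0 reversed direction and 442 kept their side of the threshold, while 77 lost it and 6 gained it. Only a result that passed in the fit above can lose its call, and the 525 also include named results that had not passed. The share of calls lost is therefore larger than 77 of 525. Between the genotypes 0 members were called in every alternative, and the single call over all probesets became 0 with the replicate block or when every probeset of the table entered, 2 with only the groups compared, 3 with a second quantile normalization or gene means, 6 with array weights, 7 with median centring and 11 with a trend and robust prior (0 to 12 leaving out an array). For T lineage against wildtype lineage-negative cells, members lower were 5 under the replicate block and 6 when every probeset entered (2 to 11 leaving out an array), and members higher were 1 with a replicate block, 2 with a second quantile normalization (Plk1 and Cdc25b) and 1 with a trend and robust prior (0 to 1 leaving out an array). Against deficient cells, members lower were 2 with only the groups compared and 2 with all probesets (1 to 5 leaving out an array), and members higher were 1 with a replicate block, a second quantile normalization, median centring or without the dimmest 40% of probesets (0 to 1 leaving out an array). Median member differences over the arrays left out were -0.09 to -0.02 between genotypes, -0.09 to -0.06 against wildtype and -0.041 to 0.013 against deficient cells. The cause of these changes was not tested; leaving out arrays and adding the block remove degrees of freedom. Same-numbered arrays deviated from their group means with correlations of -0.25 to 0.16, and arrays of different number with -0.16 to 0.25. The 2 T lineage arrays deviate from their mean as mirror images, so their correlations are equal and opposite. The check therefore cannot decide whether the numbers pair the arrays, and the fit left them unpaired.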

Other observations

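Genomic span, from the annotation, moved with the T lineage differences among the members. Over the 46 member probesets the Spearman correlation of span with the difference between T lineage and wildtype lineage-negative cells was -0.43, and the median span was 31.9 kb for the 11 probesets that fell and 21.8 kb for the other 35. Over all 21695 tested probesets with a span the correlation was -0.06. The genes share arrays and are not independent replicates, span is not transcript length, and its part in the differences was not tested.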
